A study of Homo sapiens with 4 samples.

Results

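The nuclear-encoded genes of the mitochondrial respiratory chain were read out in HCT116, a human epithelial cell line that was established from a colorectal carcinoma. The members were all rows of the count table whose identifier maps to a protein-coding gene with a symbol that starts with NDUFA, NDUFB, NDUFC, NDUFS, NDUFV, UQCR, COX4 to COX8 or ATP5. They numbered 94 of the 20263 rows. There were 37 subunits of complex I, 8 NDUFAF assembly factors of complex I, 9 members of complex III, 19 of complex IV, 19 of complex V and 2 readthrough loci that join a member to its neighbour. NDUFA4 and NDUFA4L2 were counted with complex IV, where the NDUFA4 protein is found. Counts were high enough for a test in 89 members.

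The cells were exposed for 24 h to HJJ_3_5, presented in the title of the series as a derivative of piperine, or to DMSO, the solvent control. The sources used here give no concentration. Each group held 2 samples, numbered 1 and 2, of the same line with no other stated treatment. Whether they were separate cultures is not stated, so p-values rest on a spread between samples that may be technical. The study asked for the effect of the compound on the transcriptome of this line.

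The respiratory chain of the inner mitochondrial membrane passes electrons from NADH and succinate to oxygen and pumps protons, and complex V, the ATP synthase, uses the proton gradient to make ATP. Complex I oxidises NADH, complex III passes electrons from ubiquinol to cytochrome c, and complex IV reduces oxygen. Most subunits are encoded in the nucleus and a minority in the mitochondrial genome, and assembly factors join them into complexes without staying in the finished enzyme. GABP, NRF1 and YY1 are nuclear factors known to bind promoters of many of these genes.

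The libraries held between 29211120 and 36455176 counts, and the members together took 0.790% to 0.934% of them. Levels are given in CPM, which set counts relative to the library total, with TMM scaling, and fold changes are log2 values of HJJ_3_5 over DMSO from edgeR's quasi-likelihood test, with Benjamini-Hochberg adjustment over all 14180 genes tested. A gene is called higher or lower below an adjusted p of 0.05. Of the epithelial markers, 6 of 7 were above 1 CPM in every library, while VIL1 was at or near 0 (0 to 0.136 CPM). Summed levels were 4338 to 4768 CPM in DMSO and 4937 to 5848 CPM with HJJ_3_5. KRT8 (2027 and 1855 against 2991 and 2508 CPM), KRT18 and CDX2 were higher in both treated libraries. EPCAM (286 and 269 against 235 and 221 CPM) and KRT19 were lower in both, and CDH1 overlapped. Other lists were low, with 1 of 5 fibroblast markers above 1 CPM (summed 65.0 to 67.2 CPM in DMSO and 35.2 to 40.6 CPM with HJJ_3_5) and DCN and LUM at 0. The same held for 1 of 5 leukocyte markers (37.2 to 43.0 against 20.9 to 28.6 CPM), with PTPRC at 0, and for 0 of 3 endothelial markers (0.797 to 1.19 against 1.78 to 1.92 CPM). The part of other cells in the results below was not tested.

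With HJJ_3_5, 4 of the 8 NDUFAF assembly factors of complex I rose, while of the 79 tested subunits 0 rose and 3 fell. Of the 89 tested members, 7 were called (7.87%), against 17.4% of all genes tested. The 4 called higher were NDUFAF3, NDUFAF4, NDUFAF6 and NDUFAF8, where 9.17% of all genes were called higher. The 3 called lower included UQCRB of complex III and ATP5MC2 of complex V, where 8.27% of all genes were called lower. The median log2 fold change was 0.57 over the 8 NDUFAF genes and 0.02 over the 79 tested subunits, beside 0.00 over all genes. This gap between the lists was described and not tested. The subunit count depends on the setting, with 3 higher and 1 lower by library totals, 2 and 6 by DESeq2, and 2 and 6 once a trend of GC content and transcript length was removed. It was 3 and 8 with the replicate number as a block, and 12 and 11 with both the block and the trend removal. Over all genes these settings called 24.2%, 28.2%, 24.4%, 32.6% and 34.8%, in that order. All of these calls rest on few libraries. Without DMSO 1, without DMSO 2 or without HJJ_3_5 1, 0 members were called, and the calls over all genes dropped to at most 12 higher and 40 lower. At an unadjusted p below 0.05 those fits still gave 4 to 6 members higher and 6 to 14 lower. Without HJJ_3_5 2, the set of called members changed. NDUFAF4 (log2 fold change 0.63), NDUFAF6 (0.63) and UQCRB (-0.46) lost their calls. The subunits NDUFA11 (0.54), UQCRC2 (-1.56) and ATP5F1A (-0.83) gained one.

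**Figure D1:**
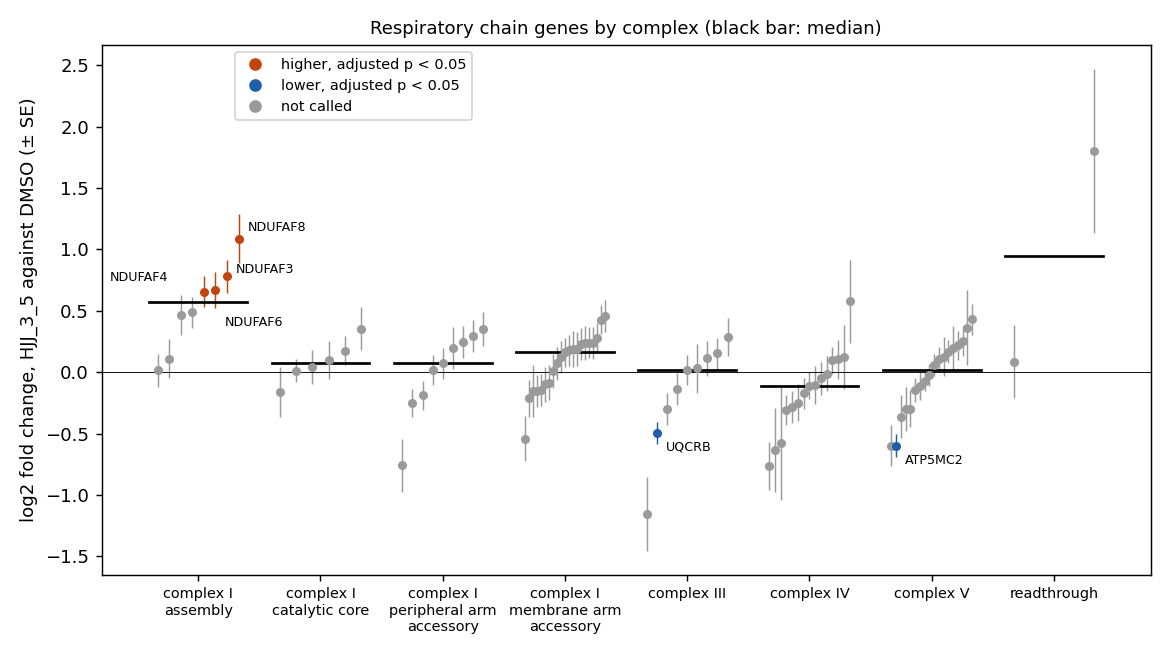
Each point is 1 tested gene with its log2 fold change of HJJ_3_5 over DMSO and its standard error, grouped by complex. Black bars are medians over the genes shown, red and blue points are genes called higher and lower, and 1 tested member is not shown. The NDUFAF median lies at 0.57 and the medians of the subunit groups lie between -0.11 and 0.16.

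Promoter sequences are shown for the 3 called NDUFAF genes that RefSeq gives an entry and for the c-subunit genes ATP5MC1 and ATP5MC2, whose log2 fold changes had opposite signs. They are RefSeq sequences of GRCh38.p14, 5′ to 3′ on the strand of the gene, from 250 bases before the annotated start to 30 bases after it. Capitals mark a match to 1 of 3 motifs searched on both strands: CCGGAAGT for GABP and other ETS factors, CGCATGCG for NRF1 (a palindrome) and AAGATGGCG for YY1.
NDUFAF3 promoter, chr3:49020202-49020481, plus strand: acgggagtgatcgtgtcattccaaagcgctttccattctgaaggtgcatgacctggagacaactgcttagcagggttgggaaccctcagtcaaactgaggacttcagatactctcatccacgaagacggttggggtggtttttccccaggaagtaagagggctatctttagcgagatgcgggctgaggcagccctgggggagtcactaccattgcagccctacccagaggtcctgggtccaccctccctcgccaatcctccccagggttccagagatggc
NDUFAF4 promoter, chr6:96897862-96898141, minus strand: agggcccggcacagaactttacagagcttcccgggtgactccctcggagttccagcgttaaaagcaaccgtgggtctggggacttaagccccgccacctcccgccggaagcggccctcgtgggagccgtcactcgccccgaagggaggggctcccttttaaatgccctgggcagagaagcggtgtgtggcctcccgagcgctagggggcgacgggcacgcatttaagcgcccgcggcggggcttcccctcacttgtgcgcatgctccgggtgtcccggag
NDUFAF8 promoter, chr17:81239664-81239943, plus strand: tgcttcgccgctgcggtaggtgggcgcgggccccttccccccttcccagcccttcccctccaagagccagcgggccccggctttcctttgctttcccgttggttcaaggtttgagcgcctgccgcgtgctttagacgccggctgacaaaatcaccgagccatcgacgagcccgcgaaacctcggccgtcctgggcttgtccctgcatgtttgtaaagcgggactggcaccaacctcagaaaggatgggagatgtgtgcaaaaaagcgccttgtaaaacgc
ATP5MC1 promoter, chr17:48892537-48892816, plus strand: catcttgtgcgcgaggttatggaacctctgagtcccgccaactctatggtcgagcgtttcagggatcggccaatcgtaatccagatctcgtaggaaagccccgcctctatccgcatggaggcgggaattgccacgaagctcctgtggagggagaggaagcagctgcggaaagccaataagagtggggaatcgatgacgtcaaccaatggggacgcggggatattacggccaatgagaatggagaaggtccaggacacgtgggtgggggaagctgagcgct
ATP5MC2 promoter, chr12:53676054-53676333, minus strand: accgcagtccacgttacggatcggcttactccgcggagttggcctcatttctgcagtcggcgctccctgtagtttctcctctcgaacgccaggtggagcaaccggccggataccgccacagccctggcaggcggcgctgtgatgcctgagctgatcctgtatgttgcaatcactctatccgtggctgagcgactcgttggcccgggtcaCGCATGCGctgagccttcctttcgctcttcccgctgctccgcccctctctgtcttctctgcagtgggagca

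In these windows, NDUFAF3, NDUFAF4, NDUFAF8 and ATP5MC1 held none of the 3 motifs, and ATP5MC2 held the NRF1 letters 41 bases before its start. For NDUFAF8, ATP5MC1 and ATP5MC2 the RefSeq start lies inside the gene as GENCODE 29 draws it, so another start would give another window. RefSeq gave 250 bases before to 50 after the start for 72 of the 89 tested members. At least 1 motif was present in 24 of them (33.3%), against 14.6% of the 11212 tested genes with an entry and 7.94% of all 27305 promoters in the table. The NRF1 letters were in 13.9% of member promoters and 3.66% of those of tested genes, the ETS letters in 12.5% and 8.27%, and the YY1 letters in 9.72% and 3.69%. Of the 7 NDUFAF promoters with an entry, 1 held a motif, in NDUFAF5. A match of letters is a description and not a bound site.

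The NDUFAF genes, which encode factors that build complex I, held all 4 higher calls among the members. Of the 8, 4 rose, 4 were not called, and all 8 had a positive log2 fold change, from 0.02 to 1.09. The groups did not overlap in 6 of the 8 (75%), which is near the 69.0% of all genes tested. NDUFAF8, a small partner that stabilises NDUFAF5, stood at 20.6 and 16.5 CPM in DMSO and at 44.5 and 34.4 CPM with HJJ_3_5. The groups did not overlap, and it rose by 1.09 ± 0.20 (SE, n = 2 per group, adjusted p = 0.0361). Its gene is at chr17:81239239-81241281 on GRCh38.

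NDUFAF3 and NDUFAF4 form a pair of interacting factors of early assembly. NDUFAF3 was at 40.0 and 33.6 CPM in DMSO and at 65.4 and 61.2 CPM with HJJ_3_5. Both treated libraries lay above both controls, and the gene rose by 0.78 ± 0.14 (SE, n = 2 per group, adjusted p = 0.0348). NDUFAF3 (chr3:49020459-49023495) shares exon bases with DALRD3 on the other strand, and the sources used here do not say whether counting used strand. With a trend of GC content and transcript length removed, the difference was 0.41 (log2) at an adjusted p of 0.0529. NDUFAF4 (chr6:96889313-96897881) was at 11.4 and 11.6 CPM in DMSO and at 17.9 and 18.3 CPM with HJJ_3_5. The replicates nearly coincided and the groups stood apart, with a rise of 0.66 ± 0.13 (SE, n = 2 per group, adjusted p = 0.0393).

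NDUFAF6, an early assembly factor that resembles phytoene synthases, was at 7.60 and 8.04 CPM in DMSO and at 12.2 and 12.7 CPM with HJJ_3_5. It rose by 0.67 ± 0.15 (SE, n = 2 per group, adjusted p = 0.0459), without overlap of the groups. NDUFAF7, a protein methyltransferase, was at 13.6 and 14.2 CPM in DMSO and at 19.5 CPM in both HJJ_3_5 libraries. Its log2 fold change was 0.49 ± 0.12, and its adjusted p of 0.0597 missed the threshold, while DESeq2 called it higher. Its exons share bases with CEBPZ on the other strand.

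NDUFAF1, a factor of the membrane arm that works with ACAD9 and ECSIT, was at 11.8 and 10.3 CPM in DMSO and at 16.5 and 14.2 CPM with HJJ_3_5. Its groups did not overlap either (log2 fold change 0.47 ± 0.16, adjusted p = 0.107). The remaining pair lay closest to no difference. NDUFAF2, a factor of late assembly, had a log2 fold change of 0.02, with a 95% interval from -0.34 to 0.37. NDUFAF5, which hydroxylates an arginine of NDUFS7, was at 9.67 and 9.13 CPM in DMSO and at 10.9 and 9.45 CPM with HJJ_3_5, so its groups overlapped. Its interval ran from -0.31 to 0.53.

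The summed level of the NDUFAF genes was 133 and 120 CPM in DMSO and 205 and 187 CPM with HJJ_3_5, a log2 ratio of 0.63. The median over the 8 genes stayed between 0.56 and 0.76 in every setting tried, the highest with library totals, and at least 7 of the 8 were positive, or 6 of 6 where genes that share exon bases were left out. The summed fibroblast and leukocyte markers were lower in the treated libraries, which rests on COL1A1 and CD68. PDGFRB, at 0.475 and 0.290 CPM in DMSO and at 0.840 and 0.690 CPM with HJJ_3_5, and LYZ, at 0.136 and 0.181 against 1.07 and 0.843 CPM, were higher. Their part in this result was not tested.

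**Figure D2:**
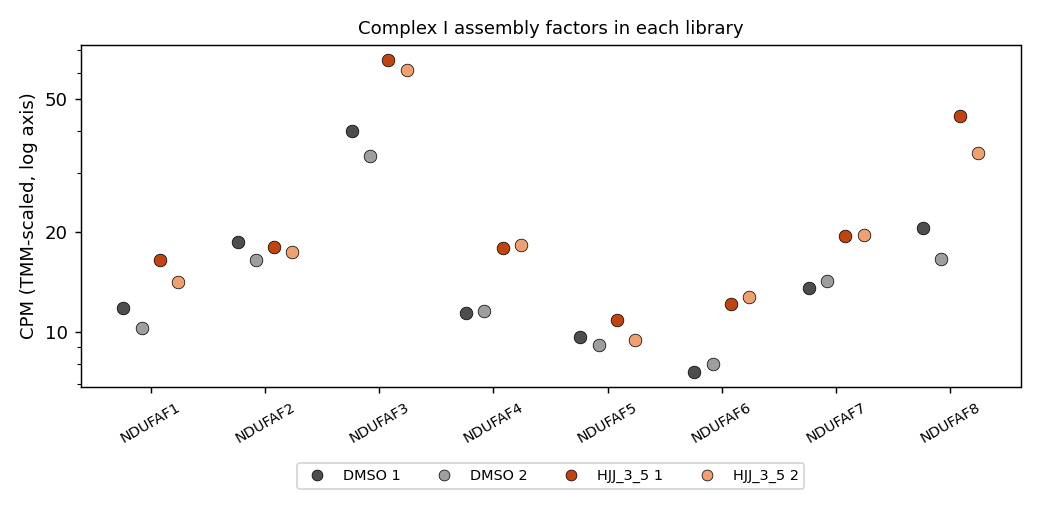
CPM of the 8 complex I assembly factors in each of the 4 libraries, on a log axis, with 1 point per library. In 6 genes (75% of the 8) both HJJ_3_5 points lie above both DMSO points, while NDUFAF2 and NDUFAF5 overlap. Over all genes tested, the groups did not overlap in 69.0%.

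Of the 37 complex I subunits, 0 were called higher by edgeR or limma-voom, 2 were higher at an unadjusted p below 0.05, and DESeq2 called 2 higher. Of all 14180 genes, 1300 were called higher by edgeR (9.17%), 1281 by limma-voom and 1839 by DESeq2. At an unadjusted p below 0.05, 2813 of all genes were higher. The core subunits named next were not called. NDUFS1, NDUFV1 and NDUFV2, which carry electrons from NADH, had log2 fold changes of 0.10, 0.18 and 0.01. With the GC and length trend removed, NDUFS1 was at 0.79 and called higher (adjusted p = 0.0165). The trend uses the longest transcript, which for NDUFS1 has 11819 bases, against a median of 2394 over its basic protein-coding transcripts. The part of this choice of length was not tested. NDUFS3 stood at 0.04 and NDUFS7, which holds the last iron-sulfur cluster before ubiquinone, at -0.16. NDUFS7 varied within DMSO, from 60.5 CPM in sample 1 to 42.5 CPM in sample 2, and its 2 HJJ_3_5 values of 48.7 and 43.3 CPM lay between these. NDUFS8, another iron-sulfur subunit, had a value of 0.36 ± 0.17 (adjusted p = 0.198). For NDUFV2 the 95% interval ran from -0.23 to 0.26.

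The accessory subunits surround the core and stabilise the arms. The median log2 fold change was 0.07 over 9 accessory genes of the peripheral arm and 0.16 over 21 of the membrane arm. NDUFA9, near the junction of the arms, was at 34.5 and 45.3 CPM in DMSO and at 20.4 and 26.8 CPM with HJJ_3_5 (log2 fold change -0.76 ± 0.21, adjusted p = 0.0722). NDUFA10, of the membrane arm, was at 73.5 and 93.8 against 51.1 and 63.7 CPM (-0.54 ± 0.18, adjusted p = 0.101). In both genes the groups did not overlap, and sample 2 was the higher of each group. On the other side stood NDUFB9 at 0.46 ± 0.13 and NDUFA11 at 0.43 ± 0.12, with adjusted p-values of 0.0725 and 0.0716. Both share exon bases with other genes, and DESeq2 and library totals called both higher. With the GC and length trend removed, NDUFA11 was at 0.06 (adjusted p = 0.600) and NDUFA9 at -0.28 (adjusted p = 0.158). The longest NDUFA9 transcript, used for the trend, has 8363 bases, against a median of 4502.5 over its basic transcripts. DESeq2 called NDUFA9 lower. These 4 genes, like UQCRC2, ATP5F1A, COX7C and ATP5F1D below, were chosen after their values were seen.

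Of the 9 members of complex III, 0 were called higher and 1 lower (11.1% called, against 17.4% of all genes). UQCRB, a small subunit next to the ubiquinone site, was at 309 and 301 CPM in DMSO and at 222 and 211 CPM with HJJ_3_5. The groups stood far apart relative to the spread of replicates, and UQCRB fell by 0.49 ± 0.09 (SE, n = 2 per group, adjusted p = 0.0357). The call was lost once a trend of GC content and transcript length was removed (log2 fold change -0.19, adjusted p = 0.415), and with library totals (-0.31, adjusted p = 0.0718). The longest UQCRB transcript, used for the trend, has 5575 bases, against a median of 645 over its basic transcripts.

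UQCRC2, a core subunit, had the lowest log2 fold change of all members, -1.15 ± 0.30, but an adjusted p of 0.0619. It was at 122 and 169.7 CPM in DMSO and at 49.5 and 81.5 CPM with HJJ_3_5. The groups did not overlap, although sample 2 exceeded sample 1 in both. DESeq2 called it lower (-1.16), as did edgeR after removal of the GC and length trend (-1.08, adjusted p = 0.0454). UQCRC1, the partner core subunit, was at 332 and 306 CPM in DMSO and at 350.3 and 296 CPM with HJJ_3_5, and its groups overlapped. Its log2 fold change was 0.02 ± 0.12, yet with the GC and length trend removed it was -0.32 and called lower (adjusted p = 0.0314), so its direction depends on the processing. UQCRFS1, the Rieske iron-sulfur protein, had a value of 0.15 ± 0.13. UQCRH, the hinge protein that helps cytochrome c dock, had -0.30 ± 0.13 (adjusted p = 0.163). UQCRHL, a near-identical copy of UQCRH, took 1.20% to 1.66% of the counts of the pair, and reads may have been split between them.

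**Figure D3:**
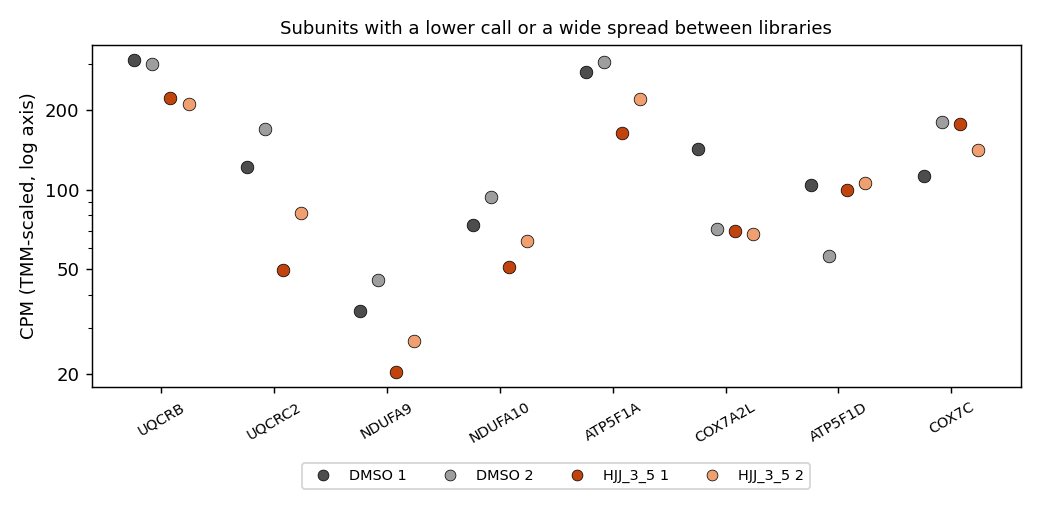
CPM of 8 subunit genes in each of the 4 libraries, on a log axis. UQCRB was called lower. UQCRC2, NDUFA9, NDUFA10 and ATP5F1A have separated groups but a wide spread, and COX7A2L, ATP5F1D and COX7C each have 1 DMSO library that stands apart.

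Complex IV had 15 tested members, of which 0 were called by edgeR in either direction, against 17.4% of all genes. At an unadjusted p below 0.05, 0 were higher and 1 was lower, beside 2813 and 2765 of all 14180 genes. DESeq2 and limma-voom also called 0, against 28.2% and 17.6% of all genes. With the GC and length trend removed, 0 were called higher and 2 lower, COX6B1 and COX6B2, where 24.4% of all genes were called. The median was -0.11, and 0.08 with library totals, so the sign of this median depends on the scaling. COX4I1, which binds ATP and tunes the enzyme, was at 242 and 234 CPM in DMSO and at 236 and 204 CPM with HJJ_3_5, with overlapping groups. Its log2 fold change was -0.11 ± 0.11, with a 95% interval from -0.40 to 0.18.

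Several complex IV subunits exist as tissue isoforms. COX4I2, known from lung, COX6A2, from heart and skeletal muscle, and COX7B2, from testis, had 0 counts in all 4 libraries. A count of 0 allows up to 3 counts, which is 0.077 to 0.109 CPM depending on the library, and covers counting error only. COX8C had 2 counts in DMSO 1, 2 in HJJ_3_5 2 and 0 in the others. Their common partners were abundant, with COX6A1 at 325, 293, 296 and 252 CPM and COX8A at 210, 184, 184 and 148 CPM in the order DMSO 1, DMSO 2, HJJ_3_5 1, HJJ_3_5 2. COX7B was at 109.7 and 102 CPM in DMSO and at 94.7 and 79.3 CPM with HJJ_3_5 (-0.28 ± 0.13 on the log2 scale, adjusted p = 0.179). The muscle form COX7A1 was at 0.226 to 0.471 CPM, and COX7A2 was at 113 and 103 CPM in DMSO and at 118 and 95.9 CPM with HJJ_3_5.

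COX6B2, the testis form of the subunit that holds the complex IV dimer together, was at 5.87 and 5.43 CPM in DMSO and at 3.07 and 3.58 CPM with HJJ_3_5. The groups did not overlap, with a log2 fold change of -0.76 ± 0.20 and an adjusted p of 0.0617. With the GC and length trend removed it was at -1.07 and called lower (adjusted p = 0.0373). COX6B1, the common form, had a log2 fold change of -0.31 ± 0.12. COX6B2 made up 3.78% of the counts of the pair in both DMSO libraries (95% Wilson intervals 3.26% to 4.37% and 3.23% to 4.42%). It made up 2.39% and 3.22% with HJJ_3_5 (1.96% to 2.92% and 2.74% to 3.79%), so the interval of HJJ_3_5 2 overlapped those of both controls. NDUFA4L2, the hypoxia-induced relative of NDUFA4, was at 0.611 and 0.905 CPM in DMSO and at 1.16 and 1.10 CPM with HJJ_3_5 (log2 fold change 0.58 ± 0.34, adjusted p = 0.267). Its share of the pair was 0.500%, 0.789%, 0.935% and 1.13% in library order, while NDUFA4 had a log2 fold change of -0.10 ± 0.15.

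COX7A2L, a relative of COX7A2 that helps join complexes III and IV into supercomplexes, was at 142 CPM in DMSO 1 and at 71.2 CPM in DMSO 2. The HJJ_3_5 values of 69.7 and 67.8 CPM lay just below the lower control. Its log2 fold change was -0.63 ± 0.34 (adjusted p = 0.233), and only DMSO 1 stood apart. COX7C showed the reverse, with 113 CPM in DMSO 1, 181 CPM in DMSO 2 and 178 and 142 CPM with HJJ_3_5, and its groups overlapped.

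Complex V gave 0 higher calls and 1 lower call among 18 tested members (5.56% called, against 17.4% of all genes). At an unadjusted p below 0.05, 1 was higher and 2 were lower, beside 2813 and 2765 of all 14180 genes. DESeq2 called 0 higher and 2 lower, limma-voom 0 and 1, against 28.2% and 17.6% of all genes called. Library totals gave 1 higher and 1 lower, as did removal of the GC and length trend, where 24.2% and 24.4% of all genes were called. The gene called lower by edgeR was ATP5MC2. It is 1 of 3 genes whose proteins are processed to the same c subunit, the ring that turns in the membrane. ATP5MC2 was at 135 and 137 CPM in DMSO and at 88.5 and 91.7 CPM with HJJ_3_5. The replicates differed little and the groups did not overlap, and ATP5MC2 fell by 0.60 ± 0.09 (SE, n = 2 per group, adjusted p = 0.0301). The gene is at chr12:53632726-53677408.

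The other c-subunit genes did not follow. ATP5MC1 was at 47.9 and 43.6 CPM in DMSO and at 65.6 and 57.5 CPM with HJJ_3_5, with no overlap, a log2 fold change of 0.43 ± 0.13 and an adjusted p of 0.0803. By edgeR it was called higher with library totals (adjusted p = 0.0353) and with the replicate number as a block (adjusted p = 0.0341). DESeq2 did not call ATP5MC1 (adjusted p = 0.0561). ATP5MC3 was at 217 and 208 CPM in DMSO and at 284 and 203 CPM with HJJ_3_5, where HJJ_3_5 1 alone was high (0.20 ± 0.18, adjusted p = 0.460). Together the 3 genes gave 400.2 and 389 CPM in DMSO and 438 and 353 CPM with HJJ_3_5, so the family sums overlapped. The share of ATP5MC2 in the family was 33.8% and 35.3% in DMSO and 20.2% and 26.0% with HJJ_3_5. The 95% Wilson intervals, which cover counting error only, were 32.97% to 34.7%, 34.4% to 36.2%, 19.5% to 20.9% and 25.3% to 26.7%. The share of ATP5MC1 was 11.96% and 11.2% in DMSO and 14.98% and 16.3% with HJJ_3_5. That of ATP5MC3 was 54.2% and 53.5%, and then 64.8% and 57.7%. These shares were not tested across samples. The promoter of ATP5MC2 printed above holds an NRF1 match that the window of ATP5MC1 lacks. These promoters were picked for the opposite signs of their genes, and ATP5MC3 had no RefSeq entry. Any link between the match and these values was not tested.

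**Figure D4:**
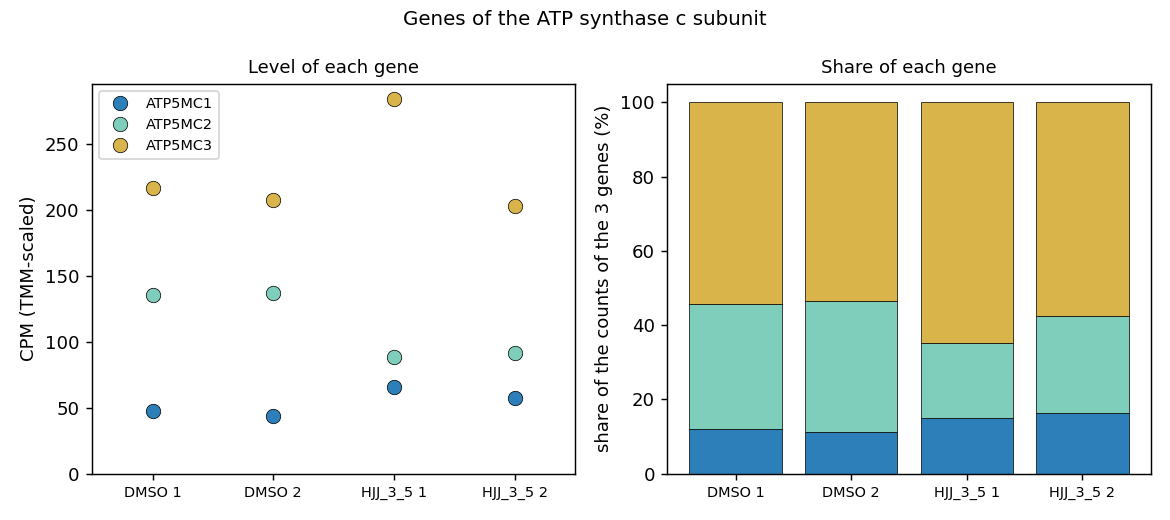
Left, CPM of the 3 genes of the ATP synthase c subunit in each library. Right, their shares of the summed counts in percent, where ATP5MC2 takes 33.8% and 35.3% in DMSO and 20.2% and 26.0% with HJJ_3_5.

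The other named members of complex V differed from each other in spread. ATP5F1B, the catalytic beta subunit, was at 793 and 786 CPM in DMSO and at 754 and 745 CPM with HJJ_3_5. This was a separation of the groups by a small step, with a log2 fold change of -0.08 ± 0.08 and a 95% interval from -0.29 to 0.14. ATP5F1A, the alpha subunit, was at 280 and 303 against 164 and 221 CPM (-0.60 ± 0.17, adjusted p = 0.0715). DESeq2 called ATP5F1A lower, as did edgeR without HJJ_3_5 2. With the GC and length trend removed it was at -0.35 (adjusted p = 0.0671). ATP5IF1, which blocks ATP hydrolysis by the enzyme, had 0.10 ± 0.10. ATP5F1D, the delta subunit of the central stalk, was at 104 CPM in DMSO 1 but 56.1 CPM in DMSO 2, with 100 and 106 CPM in HJJ_3_5, so its value of 0.36 ± 0.31 rests on DMSO 2. ATP5MGL had 0, 1, 0 and 9 counts in library order and was not tested.

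The levels per transcript length placed COX6A1 first among the members, with 510.1 CPM per kilobase averaged over the 4 libraries. UQCRH followed at 457, ATP5F1B at 419, UQCRB at 404 and COX8A at 358 CPM per kilobase. In the DMSO libraries alone UQCRB stood above ATP5F1B, with 473 against 429.5 CPM per kilobase. The readthrough locus NDUFC2-KCTD14 had the highest log2 fold change of all members, 1.80 ± 0.67, at only 0.441 and 0.109 CPM in DMSO and 0.743 and 1.20 CPM with HJJ_3_5 (adjusted p = 0.122). ATP5MF-PTCD1 stood at 0.09 ± 0.30. Both share their exons with the parent genes.

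Viewed over all members, shifts were small. The median absolute log2 fold change was 0.20 for members and 0.38 for all genes, and 3 members (3.37%) passed a 2-fold difference, NDUFAF8, UQCRC2 and NDUFC2-KCTD14, against 13.9% of all genes. The median standard error was 0.135 for members and 0.164 for all genes, and members were more abundant, with a median of 70.3 CPM against 28.4 CPM. For 70 of the 79 tested subunits the 95% interval of the log2 fold change lay within a 2-fold difference in either direction. The groups did not overlap in 51 of the 89 tested members (57.3%), against 69.0% of all genes, of which 6 were NDUFAF genes, 21 complex I subunits, 4 in complex III, 6 in complex IV, 13 in complex V and 1 a readthrough locus.

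Summed over genes, complex I subunits had 2284 and 2260 CPM in DMSO and 2498 and 2226 CPM with HJJ_3_5. Complex III had 1453 and 1413 CPM against 1317 and 1167 CPM, and complex V had 2981 and 2884 against 2882 and 2720.5 CPM. Complex IV had 1986 and 1834 against 1912 and 1601 CPM, an overlap of the groups, as in complex I. HJJ_3_5 1 was above HJJ_3_5 2 in 70 of 89 members, with a median log2 difference of 0.20, which exceeds the median fold change of 0.07 over members. Among members above 10 CPM, 4 differed by more than 0.5 on the log2 scale between the DMSO libraries (NDUFS7, COX7A2L, COX7C and ATP5F1D) and 2 between the HJJ_3_5 libraries (NDUFB3 and UQCRC2).

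Member transcripts were short, with a median length of 1268 bases for the longest transcript against 3323 bases over all genes, and their median GC content was 47.6% against 50.005%. Among the shortest 2805 genes the median log2 fold change was 0.10, and the 58 members in it had a median of 0.08. Among the longest 2804 genes it was -0.30, and the 3 members there had a median of -0.60. The part of length in the members' values was not tested beyond the trend removal.

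Assembly factors of the other complexes were listed for comparison. For complex IV, 5 of 26 assembly genes rose and 1 fell (23.1% called, against 17.4% of all genes). DESeq2 called 7 higher and 2 lower, and library totals gave 10 higher and 0 lower, where 28.2% and 24.2% of all genes were called. TACO1, a translational activator of the mitochondrial MT-CO1 message, was at 24.0 and 24.2 CPM in DMSO and at 51.4 and 45.5 CPM with HJJ_3_5 and rose by 1.01 ± 0.13 (adjusted p = 0.0273). COA3, which acts on the same subunit, COX19, of copper handling, and SCO1, a copper chaperone, rose by 0.95, 0.85 and 0.53, and COA7 by 0.81. COX17, which hands copper to SCO1, fell by 0.63 ± 0.12 (adjusted p = 0.0369), from 38.8 and 40.4 to 24.8 and 26.4 CPM. SCO1 and COA7 lay outside the naming rule and complete the 6 calls. LYRM7, a chaperone of UQCRFS1, was the 1 called of 6 complex III factors (16.7%, near the 17.4% of all genes) and rose by 0.79 ± 0.14. DMAC2L, an ATP synthase factor, was the 1 called of 6 (also 16.7%) and rose by 0.96 ± 0.14.

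Of all 14180 genes tested, 17.4% were called by edgeR, and 2813 were higher and 2765 lower at an unadjusted p below 0.05. DESeq2 called 28.2% of all genes, limma-voom 17.6%, library totals 24.2% and the fit without the GC and length trend 24.4%. Counts in lists of 10, 8 and 3 genes are not read here as a difference from these shares. The 10 complex I assembly genes outside the NDUFAF family had a median of 0.34 and 0 calls by edgeR, with 4 higher and 0 lower at an unadjusted p below 0.05. DESeq2 called 1 higher and limma-voom 0. Library totals gave 4 higher and 0 lower, and removal of the GC and length trend gave 1 higher and 0 lower. The 8 genes of complex II and its assembly had a median of -0.01 and 0 calls by edgeR, with 1 higher at an unadjusted p below 0.05. DESeq2 and library totals each gave 1 higher, and limma-voom gave 0. With the GC and length trend removed, 1 was called higher and 2 lower, and the median was 0.14. Cytochrome c, c1 and their haem lyase gave 0 calls among 3 by edgeR, DESeq2 and limma-voom, 0 at an unadjusted p below 0.05, and a median of 0.17. With the GC and length trend removed, 1 was called higher. Without DMSO 1, without DMSO 2 or without HJJ_3_5 1, 0 genes of any of the assembly lists were called.

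**Figure D5:**
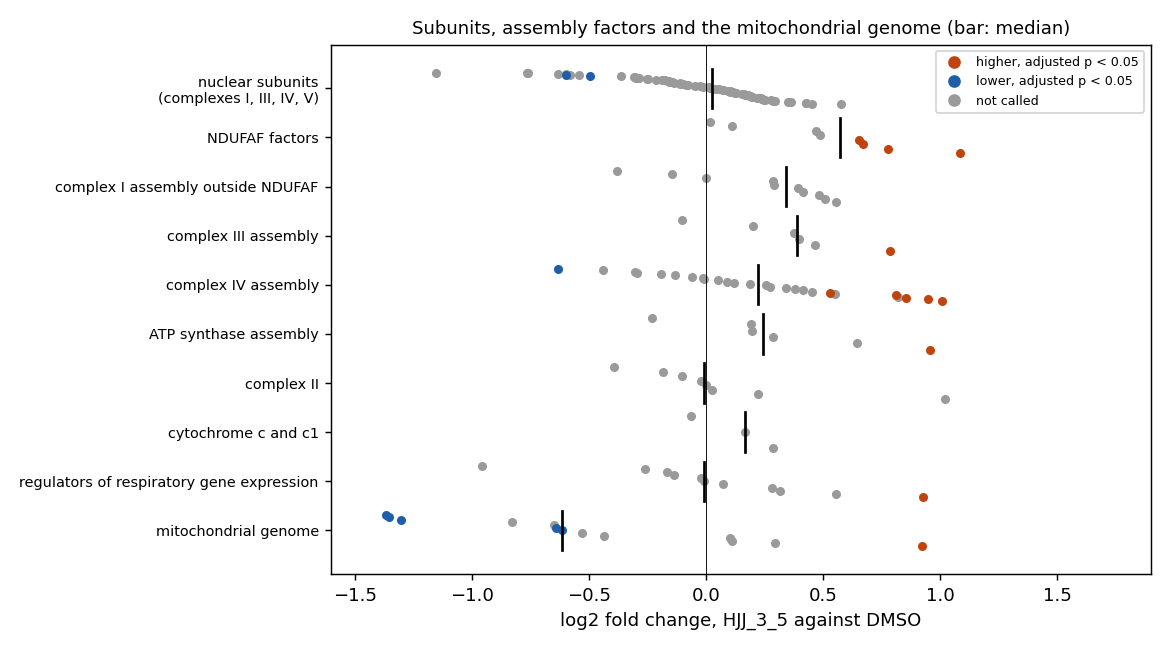
Log2 fold changes of HJJ_3_5 over DMSO for tested genes of each list, with 1 point per gene and black bars at the medians of the genes shown. The plot leaves out 1 tested subunit. Medians lie at 0.02 for nuclear subunits, 0.57 for NDUFAF factors and -0.61 for the mitochondrial genome.

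The mitochondrial genome supplies the remaining subunits of the same complexes, and its 13 protein-coding genes had a median log2 fold change of -0.61. By edgeR 5 fell and 1 rose (46.2% called, against 17.4% of all genes). DESeq2 called 9 lower and 1 higher, and library totals gave 3 lower and 1 higher, where 28.2% and 24.2% of all genes were called. The median was -0.34 with the GC and length trend removed. MT-ND4, a membrane arm subunit of complex I, fell by 1.30 ± 0.17, and MT-ND4L, another, fell by 1.35 ± 0.16. MT-ATP8 of complex V fell by 1.37 ± 0.19 and MT-CO1 of complex IV by 0.64 ± 0.12, both without overlap of the groups. MT-CO3 fell by 0.61 ± 0.13. MT-CO1 and MT-CO3 lay outside the naming rule and complete the calls. MT-ND1, by contrast, was at 1120.1 and 1315 CPM in DMSO and at 2514 and 2107 CPM with HJJ_3_5 and rose by 0.92 ± 0.14 (adjusted p = 0.0297). MT-ND4 overlaps MT-ND4L and MT-ATP8 overlaps MT-ATP6, so reads could be shared between neighbours. Without DMSO 2 or without HJJ_3_5 1, 0 of the 13 were called, and without DMSO 1, 0 were called higher and 2 lower.

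Among 11 tested regulators of respiratory gene expression, 1 was called (9.09%, against 17.4% of all genes). PPRC1, a coactivator of the PGC-1 family, was at 47.5 and 47.0 CPM in DMSO and at 91.8 and 88.2 CPM with HJJ_3_5 and rose by 0.93 ± 0.10 (adjusted p = 0.0273). NRF1, YY1 and TFAM had log2 fold changes of -0.01, -0.02 and 0.07. GABPA, the DNA-binding subunit of GABP, was at 49.1 and 65.5 CPM in DMSO and at 21.2 and 37.9 CPM with HJJ_3_5 (-0.96 ± 0.33, adjusted p = 0.102), with separate groups but a wide spread. The 4 genes not called were named after their values were seen. PPARGC1A had too few counts for a test. Fewer cells of a type and less RNA per cell cannot be told apart in these bulk samples.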

How the data were processed

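The authors deposited whole-number read counts for each gene and sample without normalization. The aligner, the counter and the use of strand are not stated in the sources used here. Per the submitters' processing notes the builds were GRCm38 and mm10, both of mouse, whereas the rows carry human Ensembl identifiers, and the true build remains unknown. Positions, lengths and overlaps are those of GENCODE 29 on GRCh38, and 20148 identifiers matched a current symbol.

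Genes were kept with filterByExpr (minimum count 10, minimum total 15), scaled by TMM and tested with edgeR's quasi-likelihood test (edgeR 4.0.16, R 4.3.3, two-sided, no covariates, with 2 residual degrees of freedom). The biological coefficient of variation was 0.193. Spearman's rho across genes was 0.986 between DMSO libraries and 0.980 between HJJ_3_5 libraries. A standard error is the log2 fold change divided by the square root of F. CPM per kilobase uses the median length of basic protein-coding transcripts. Called members, all NDUFAF genes, core subunits, isoform groups and the 5 highest levels per length were named, and called genes of each list, up to 4. Members and lists were chosen with earlier results of these data known. Alternatives were other scalings and filters, DESeq2 1.42.0, limma-voom 3.58.1, a replicate block, removal of a GC and length trend (natural splines, 4 degrees of freedom), genes without shared exons, a stricter threshold and leaving out each library. The trend used the length and GC content of the longest protein-coding transcript of each gene. Values of 1 member are not reported here.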

Additional observations from a re-analysis of the deposited data

How the results depend on the processing

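The counts of called members (4 higher, 3 lower) and their median log2 fold change (0.07) held with relative log expression factors, either other filter on low counts and limma-voom, with medians from 0.06 to 0.08. Without members that share exon bases there were 3 higher and 3 lower of 56, with a median of 0.04. Library totals moved the median of all genes by 0.19 and the split over all genes from 1300 higher and 1173 lower to 2614 and 818, and gave 8 members higher, 1 lower and a median of 0.26, or 0.07 above that of all genes. DESeq2 gave 7 higher and 6 lower, with 28.2% of all genes called. With the GC and length trend removed there were 6 higher and 6 lower (24.4% of all genes), and UQCRC1 went from 0.02 to -0.32. With the trend removed and a replicate block there were 18 higher and 11 lower (34.8%), and UQCRC1 was at -0.32. At an adjusted p below 0.01, 0 members were called higher and 0 lower, as were 0 of all genes. Leaving out 1 library gave 0 to 3 higher, 0 to 4 lower and medians from -0.049 (without HJJ_3_5 replicate 1) to 0.13, where the lone sample of a group is assumed to vary like the other group. The causes were not tested.

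The sample numbers are shared by the groups, but the labels do not say that they pair samples. Deviations of same-numbered samples correlated across genes (r = 0.25) over 2 pairs, too few to settle it. With the replicate number as a block, 8 members were called higher and 8 lower, and 32.6% of all genes. The lower calls then included NDUFA9, NDUFA10, UQCRC2 and ATP5F1A (adjusted p 0.0174, 0.0220, 0.0151 and 0.0266, edgeR). With 2 samples per group, precision is limited by the spread between libraries rather than by depth for abundant members, and COX4I2, COX6A2, COX7B2, COX8C and ATP5MGL are at or near the limit of counting.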
